A study of Mus musculus with 79 samples.

Results

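This comparison follows embryoid bodies that lack all TET enzymes through the last step of a differentiation course, from day 6 to day 8. Its members are the 3 TET KO libraries of day 8 and the 3 TET KO libraries of day 6, which are 6 of the 79 libraries in the series, and every gene in the deposited table takes part. TET KO is a mouse embryonic stem cell line in which Tet1, Tet2 and Tet3 are all knocked out. The same 2 days in TET WT, the parental line of TET KO, and in DNMT WT, the parental line of a separate Dnmt1, Dnmt3a and Dnmt3b knockout, were set beside it (3 libraries for each line and day). That knockout line, DNMT KO, also with 3 libraries on each day, entered only the gene filter and the shared fit described below. All lines began as stem cells in 2i/Lif medium and passed to embryoid bodies, which are floating aggregates. Each genotype is represented by 1 line, so the knockout cannot be told apart from any other difference between the lines. Whether replicates came from separate cultures is not stated in the labels, and p-values therefore rest on the spread among these libraries, which may be technical.

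TET enzymes oxidise 5-methylcytosine, the base that marks methylated DNA, and are best known for helping enhancers and promoters to lose methylation during lineage entry. Mouse embryoid bodies form a primitive streak-like mesoderm in the first days, and from it the first red blood cells, endothelium, beating heart muscle and mesenchyme. An outer layer of visceral endoderm forms as well, and pluripotency genes are normally silenced along the way.

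The values were log2 RPKM (reads per kilobase of gene and M reads), given here as RPKM. Reads recovered from the steps in the values numbered 11.67 to 12.20 M in the TET KO day 8 libraries and 10.92 to 11.67 M in those of day 6, and a gene with no read carries the value of 0.9 reads. Genes at 1 RPKM or more in at least 2 of the 24 day 6 and day 8 libraries of 4 genotypes were tested, which kept 13866 of 35230 genes. The 4 genotypes were TET KO, TET WT, DNMT KO and DNMT WT, and a gene could pass through libraries of 1 line alone. Changes are log2 differences of RPKM + 0.5, day 8 minus day 6, from limma, with SE and Benjamini-Hochberg adjusted p over all genes tested. This scale understates the change of low genes. Calls needed an adjusted p under 0.05 together with a log2 change of 1 or more in size, and only called genes are said to rise or fall. The labelled cell state, differentiating embryoid bodies, was in place in TET KO, where marker genes of heart muscle, endothelium and mesenchyme were expressed on day 8 as described below. The deleted exons are not given, so whole-gene levels check the knockout label in part only. Tet1 stood at 3.00, 2.52 and 3.43 RPKM on day 8 of TET KO, against 4.47, 3.89 and 4.37 RPKM on day 6. Tet2 had 2.83, 3.08 and 2.73 RPKM on day 8 against 1.86, 2.05 and 2.12 RPKM on day 6, and Tet3 6.78, 7.39 and 6.18 RPKM on day 8 against 4.0, 3.64 and 3.85 RPKM on day 6. None of these 3 genes was called in TET KO. In TET WT, Tet1 averaged 2.56 and 5.34 RPKM, Tet2 2.06 and 1.38 RPKM and Tet3 8.67 and 5.70 RPKM on day 8 and day 6, so reads over the whole genes were present in both lines.

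In TET KO, 662 genes rose and 219 fell between day 6 and day 8, 4.77% and 1.58% of the genes tested. The steepest rises included muscle, vessel and matrix genes, and the steepest falls included the lateral plate and trophoblast gene Hand1, the caudal gene Cdx2 and the imprinted gene Phlda2. In TET WT 990 genes (7.14%) rose and 265 (1.91%) fell over the same days, and in DNMT WT 889 (6.41%) rose and 173 (1.25%) fell. Of the 662 genes that rose in TET KO, 307 (46.4%, or 31.0% of the TET WT rises) also rose in TET WT and 15 fell there. Of the 219 that fell in TET KO, 73 (33.3%, or 27.5% of the TET WT falls) also fell in TET WT and 6 rose there. The root mean square log2 change over all genes tested was 0.54 in TET KO, against 0.69 in TET WT and 0.62 in DNMT WT. Rises made up 75.1% of the calls in TET KO, with a median change of 0.05 over all genes. That split depended on the scaling: with median centring 550 genes rose and 265 fell (67.5% rises), and with quantile normalization 460 rose and 281 fell (62.1% rises).

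**Figure D1:**
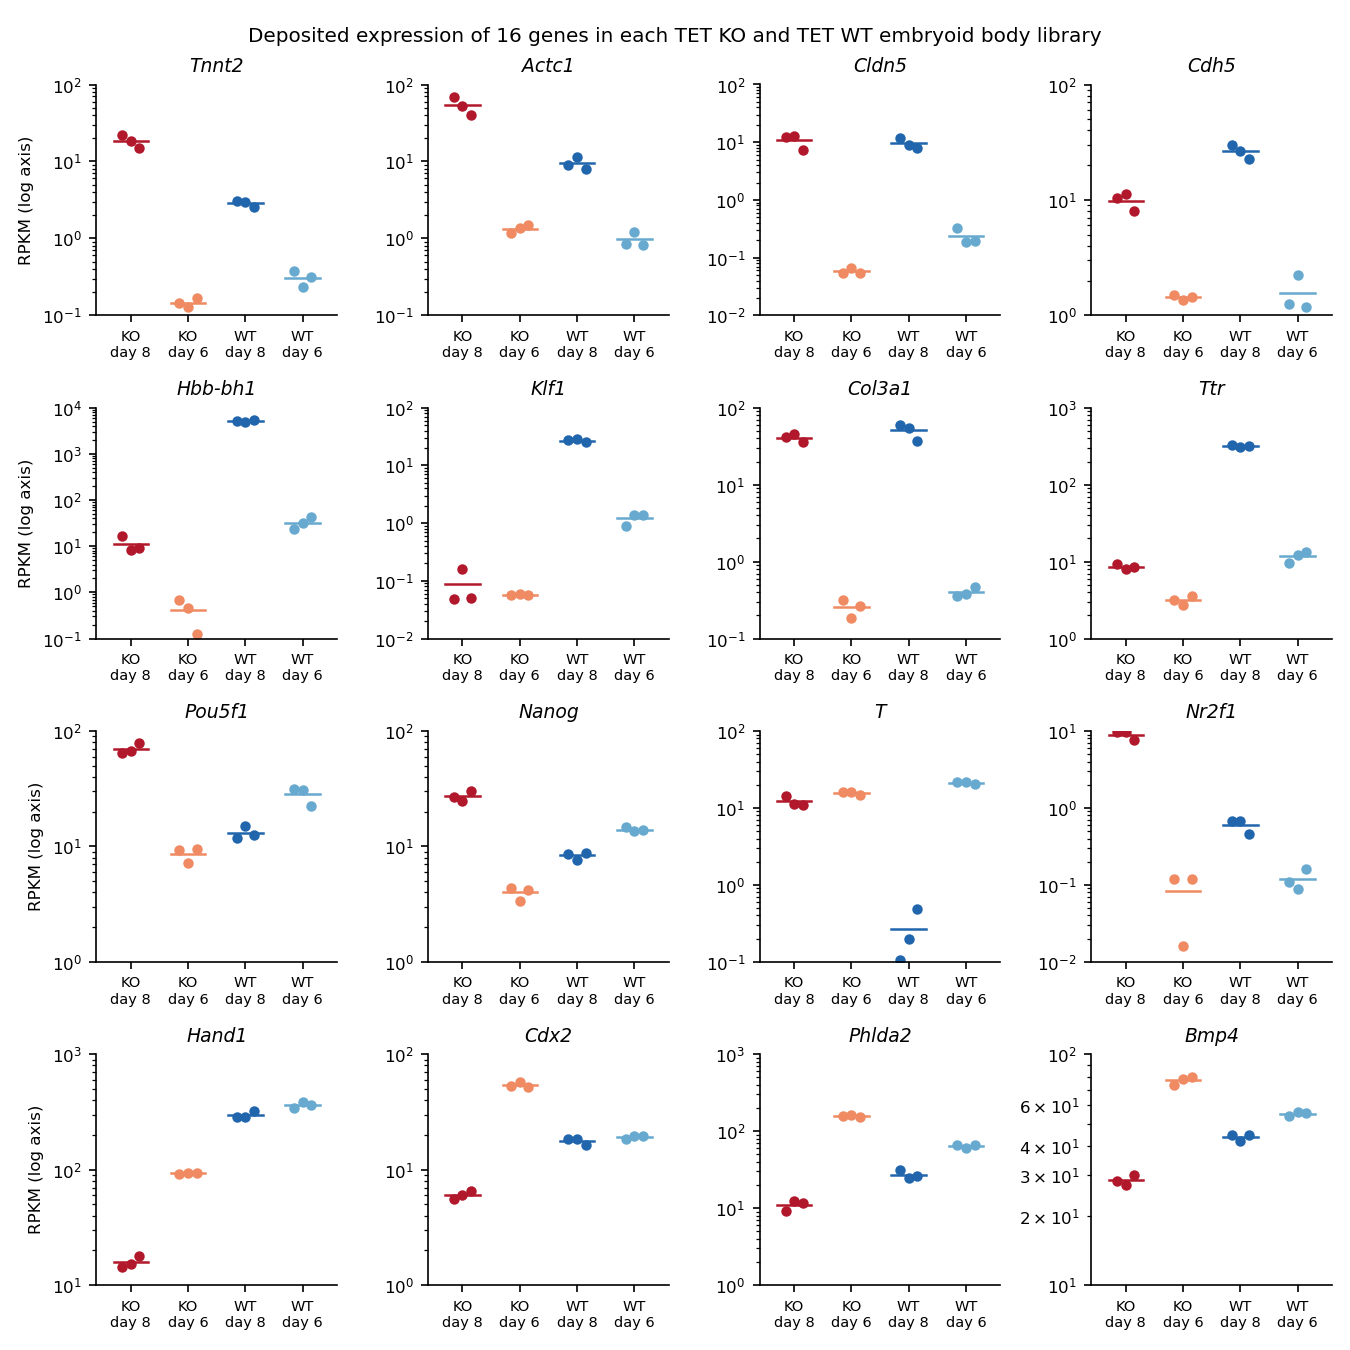
Level of 16 genes in each library, in RPKM on a log axis, for TET KO day 8, TET KO day 6, TET WT day 8 and TET WT day 6. Dots are libraries (3 for each line and day) and lines are means. Tnnt2, Cldn5 and Col3a1 sit far higher on day 8 of TET KO than on day 6, Pou5f1 and Nanog do so in TET KO and not in TET WT, and Klf1 stays near the floor in TET KO.

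Several genes of the heart muscle sarcomere rose steeply. Of 30 genes of the cardiac sarcomere list 22 were tested, and 12 of these rose and none fell in TET KO, with a median log2 change of 1.18 beside 0.05 for all genes. Tnnt2, cardiac troponin T of the thin filament (ENSMUSG00000026414, chr1:135836354-135852260 in GRCm38, plus strand), stood at 21.8, 18.3 and 15.1 RPKM on day 8, against 0.144, 0.130 and 0.166 RPKM on day 6. Every day 8 library was far above every day 6 library, and the log2 change was 4.86 (SE 0.13, adjusted p = 3.4e-17). Actc1, the actin of heart muscle, had 68.9, 51.8 and 39.9 RPKM on day 8 and 1.17, 1.36 and 1.48 RPKM on day 6 (log2 change 4.85, SE 0.22). Myl7, the atrial regulatory myosin light chain, had 125, 113 and 91.1 RPKM on day 8 and 5.08, 2.17 and 5.09 RPKM on day 6 (log2 change 4.64, SE 0.29). In all 3 genes replicate 1 of day 8 was the highest library and replicate 3 the lowest, and neither day overlapped the other. Myh6, the fast cardiac myosin heavy chain, rose by 3.88, and Mybpc3, which binds myosin in the thick filament, by 3.69 on the log2 scale. Summed over the list, the level was 293 to 386 RPKM on day 8 and 78.4 to 83 RPKM on day 6. In bulk RNA, a change in the number of cells of a type and a change in RNA per cell cannot be told apart, here and in the groups that follow.

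Among cardiac transcription factors and signals 5 of 18 rose and 3 fell in TET KO. Nkx2-5, an early heart field factor, had 10.6, 7.26 and 6.97 RPKM on day 8 against 0.0562, 0.661 and 1.18 RPKM on day 6 (log2 change 3.07, SE 0.27, adjusted p = 4.78e-09). The 3 day 6 libraries differed from one another by more than their mean, yet all were below the lowest day 8 library. Smyd1, a methyltransferase needed for sarcomere assembly, rose by 3.56, Gata5 by 2.32 and Mef2c, a muscle differentiation factor, by 2.02. Tbx3, Fgf10 and Hand1 were the members that fell. The sarcomere list had 12 rises in TET WT (median 1.32) and 18 in DNMT WT (median 1.92). In the difference of the changes, TET KO minus TET WT, 8 of the 22 sarcomere genes were called higher and 2 lower, beside 3.64% higher and 4.68% lower over all genes. Tnnt2 and Myl7 had differences of 2.80 (SE 0.19) and 2.95 (SE 0.41), and those of Actc1 and Myh6, 2.08 each, were not called with voom, the count model of limma, on recovered reads (2.00 and 1.78). Against DNMT WT 1 sarcomere gene was called higher and 5 lower, beside 2.96% and 4.05% over all genes.

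Promoter windows are shown for a pair of the steepest sarcomere genes because each holds a CArG box, the site of serum response factor, in the 250 bases before the RefSeq start (GRCm38.p6). Capitals mark the box. The Myl7 window is chr11:5898783-5899032 on the minus strand and the Actc1 window chr2:114052876-114053125 on the minus strand, whose RefSeq start lies 673 bases from the gene start in the table.
Myl7: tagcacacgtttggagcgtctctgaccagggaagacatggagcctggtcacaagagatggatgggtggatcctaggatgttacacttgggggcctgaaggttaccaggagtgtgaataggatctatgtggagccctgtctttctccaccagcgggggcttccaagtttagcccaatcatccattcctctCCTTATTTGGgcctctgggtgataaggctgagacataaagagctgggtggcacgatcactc
Actc1: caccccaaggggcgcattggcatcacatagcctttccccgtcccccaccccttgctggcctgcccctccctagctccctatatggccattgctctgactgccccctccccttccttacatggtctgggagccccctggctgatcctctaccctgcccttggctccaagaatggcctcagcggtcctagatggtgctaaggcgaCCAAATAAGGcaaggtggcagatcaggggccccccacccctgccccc
With both strands searched, 5 of the 20 sarcomere genes with a window held a CArG box (25%: Actc1, Ldb3, Myl3, Myl7 and Myom1), against 1.16% of the 10324 tested genes with a window. A match is a description of the letters and not a measured binding site.

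Of 28 tested endothelial genes 14 rose, 14 were not called and none fell in TET KO (median log2 change 1.27), against 20 rises in TET WT (median 1.63) and 15 in DNMT WT (median 1.27). Cldn5, a tight junction protein of vessels, had 12.2, 12.6 and 7.38 RPKM on day 8, against 0.0545, 0.0647 and 0.0545 RPKM on day 6. The day 6 values rest on 1 read over the 3 libraries and those of day 8 on 545 reads, a ratio of 522 after scaling for depth, with a 95% counting interval of 93.3 to 20649. Cdh5, VE-cadherin of the endothelial junction, had 10.4, 11.1 and 7.95 RPKM on day 8 against 1.51, 1.35 and 1.45 RPKM on day 6 (log2 change 2.41, SE 0.14, adjusted p = 3.36e-12). For both genes replicate 3 was the lowest day 8 library and still lay above every day 6 library. The receptor kinases Tek and Tie1 rose by 3.48 and 3.43, and the factor Sox7 by 2.62. Kdr, the VEGF receptor that already marks early mesoderm, overlapped between the days, at 19.2 ± 2.1 RPKM on day 8 and 16.9 ± 0.97 RPKM on day 6 (SD, n = 3 each), and was not called.

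In the difference of the changes, TET KO minus TET WT, 1 of 28 endothelial genes was called higher (Sox7, 1.32) and 6 lower, among them Cdh5 at -1.33 (SE 0.19, adjusted p = 9.58e-06). Over all genes tested 3.64% were called higher and 4.68% lower, so the higher count is near the share of all genes. Cdh5 reached 9.84 ± 1.68 RPKM on day 8 in TET KO and 26.4 ± 3.75 RPKM in TET WT (SD, n = 3 each), against day 6 levels of 1.44 ± 0.08 in TET KO and 1.55 ± 0.60 RPKM in TET WT. With a pseudocount of 1 RPKM the difference for Sox7 was 0.88 and was no longer called. Against DNMT WT the balance was the other way, with 5 endothelial genes called higher and 2 lower (median difference -0.05), beside 2.96% and 4.05% over all genes.

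Among blood genes, several stem cell and progenitor genes rose, as did some erythroid factors and globins. Few haem, iron and red cell membrane genes rose. Over all genes tested the share that rose was 4.77%. Of 19 blood stem and progenitor factors 9 rose and none fell in TET KO, against 13 rises in TET WT and 10 in DNMT WT. Of 10 erythroid factors, a list that also holds genes of earlier progenitors, 4 rose in TET KO, against 8 in TET WT and 4 in DNMT WT. The TET KO count was 2 without TET KO day 6 replicate 2, without TET KO day 8 replicate 1 and with median centring, and 1 with quantile normalization and with a pseudocount of 1 RPKM. Among the TET KO rises was Tal1, the haemangioblast factor, which had 1.59, 1.39 and 1.66 RPKM on day 8 against 0.0978, 0.188 and 0.176 RPKM on day 6 (log2 change 1.65). Lmo2, its partner, rose by 2.55 and Angpt1, a ligand of Tek, by 3.02. Runx1, needed for definitive blood, had 0.872, 0.777 and 0.998 RPKM on day 8 and 0.449, 0.244 and 0.392 RPKM on day 6, a log2 change of 0.69 that was not called, and that was called with a pseudocount of 0.1 RPKM (1.11) and with voom (1.32).

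The red cell genes Gata1, Klf1 and Alas2 stayed near the floor in TET KO. Gata1, the master factor of red cells, had 0.172, 0.504 and 0.351 RPKM on day 8 and 0.316, 0.263 and 0.176 RPKM on day 6, with overlapping libraries (log2 change 0.15, adjusted p = 0.379). In TET WT it averaged 15.5 ± 0.77 RPKM on day 8 and 3.12 ± 0.39 RPKM on day 6. Klf1, which switches on red cell genes, held 3 reads in all on day 8 and 3 on day 6 of TET KO (ratio 0.958, counting interval 0.128 to 7.15), against 27.0 and 1.24 RPKM on average in TET WT on day 8 and day 6. Alas2, the first enzyme of red cell haem synthesis, had no read in any TET KO library of either day, and averaged 50.7 and 0.31 RPKM in TET WT on day 8 and day 6. Slc4a1, the red cell anion exchanger, had 18 reads on day 8 and none on day 6 of TET KO, which is at least 2.03-fold higher against a floor of 3 reads per library and was not called, with overlapping libraries. None of 16 haem and iron genes was called in TET KO with limma, nor with voom (8 had an unadjusted p under 0.05), where 11 rose in TET WT and 4 in DNMT WT. Of 23 red cell membrane genes 2 rose in TET KO, among them Sptb (log2 change 1.32), against 18 in TET WT and 14 in DNMT WT. With voom 6 rose and 1 fell in TET KO, and with a pseudocount of 0.1 RPKM 4 rose and 1 fell. Red cell genes low in TET KO could pass the filter through libraries of other lines alone, which bears on the counts set beside TET KO.

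Some globins rose in TET KO, to levels far under those of the parental line. Of 9 tested globin genes 4 rose in TET KO, and all 9 rose in TET WT and 8 in DNMT WT. A globin low in TET KO could pass the filter through libraries of other lines alone. The counts of TET WT and DNMT WT therefore rest in part on the filter. Hbb-bh1, the embryonic beta-like globin, had 16.4, 8.16 and 9.22 RPKM on day 8 of TET KO against 0.699, 0.448 and 0.126 RPKM on day 6, with no overlap (log2 change 3.66, SE 0.24, adjusted p = 4.02e-11). In TET WT it reached 5044, 4837 and 5340 RPKM on day 8, against 23.1, 31.7 and 42.4 RPKM on day 6, and in DNMT WT 3060 and 150 RPKM on average on day 8 and day 6. Hbb-y, a second embryonic beta-like globin, held 215 reads on day 8 and 2 on day 6 of TET KO (ratio 103, counting interval 28.2 to 855), and Hba-x, the embryonic alpha-like globin, 194 and 1 (ratio 186, interval 32.9 to 7374). Globin reads made up 0.00173% to 0.00269% of each TET KO day 8 library and 0.648% to 0.678% of each TET WT day 8 library. Hba-a1 had 1.76, 0.909 and 0.95 RPKM on day 8 of TET KO and no read in any day 6 library, at least 3.73-fold higher against a floor of 3 reads per library, a call that was lost with a pseudocount of 1 RPKM (0.99). Hba-a1 and Hba-a2 are near-identical copies, so the split of reads between them is uncertain.

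The globin difference between the lines depends on the scale. On log2(RPKM + 0.5) the difference of the changes, TET KO minus TET WT, was -3.65 for Hbb-bh1 and -3.63 for Hbb-y. Fitted on recovered reads with voom, the differences were -2.17 and -1.88 and were not called. The day 6 means were 0.424 RPKM in TET KO and 32.4 RPKM in TET WT for Hbb-bh1, and 0.134 and 1.76 RPKM for Hbb-y. The difference for Hba-x was -7.35 (SE 0.20, adjusted p = 1.08e-16) and was called under every alternative run.

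Promoter windows of Alas2 and Hba-x are shown because both genes are among the largest negative differences from TET WT, Alas2 with AGATAA, a form of the GATA motif, and Hba-x with few CpG dinucleotides. Other forms of the GATA motif were not searched in either window. Capitals mark AGATAA on either strand in Alas2 (here its complement, TTATCT) and CG in Hba-x. The Alas2 window is chrX:150547167-150547416 on the plus strand and the Hba-x window chr11:32276350-32276599 on the plus strand (RefSeq, GRCm38.p6).
Alas2: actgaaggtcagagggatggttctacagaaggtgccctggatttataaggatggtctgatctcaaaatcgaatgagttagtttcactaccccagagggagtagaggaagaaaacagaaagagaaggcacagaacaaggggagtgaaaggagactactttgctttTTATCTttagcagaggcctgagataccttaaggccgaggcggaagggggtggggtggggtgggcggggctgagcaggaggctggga
Hba-x: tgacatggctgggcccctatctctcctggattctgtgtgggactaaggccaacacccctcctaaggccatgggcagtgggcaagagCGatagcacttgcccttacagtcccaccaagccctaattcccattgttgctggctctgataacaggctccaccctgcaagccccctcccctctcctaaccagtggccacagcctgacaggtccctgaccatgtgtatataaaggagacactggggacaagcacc
AGATAA was found on 1 or the other strand in 5 of 14 red cell membrane genes with a window (35.7%), in 5 of 20 sarcomere genes (25%), in 2 of 8 globin genes (25%), in 7.43% of the 431 genes that rose and 7.86% of the 140 that fell in TET KO, in 12.6% of the 437 genes with a called negative difference from TET WT and in 5.69% of all tested genes with a window. Among the 674 genes with a window that rose in TET WT the share was 10.4%. The Hba-x window, whose RefSeq start lies 200 bases from the gene start in the table, holds 1 CpG, where the median over all windows was 16.

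**Figure D2:**
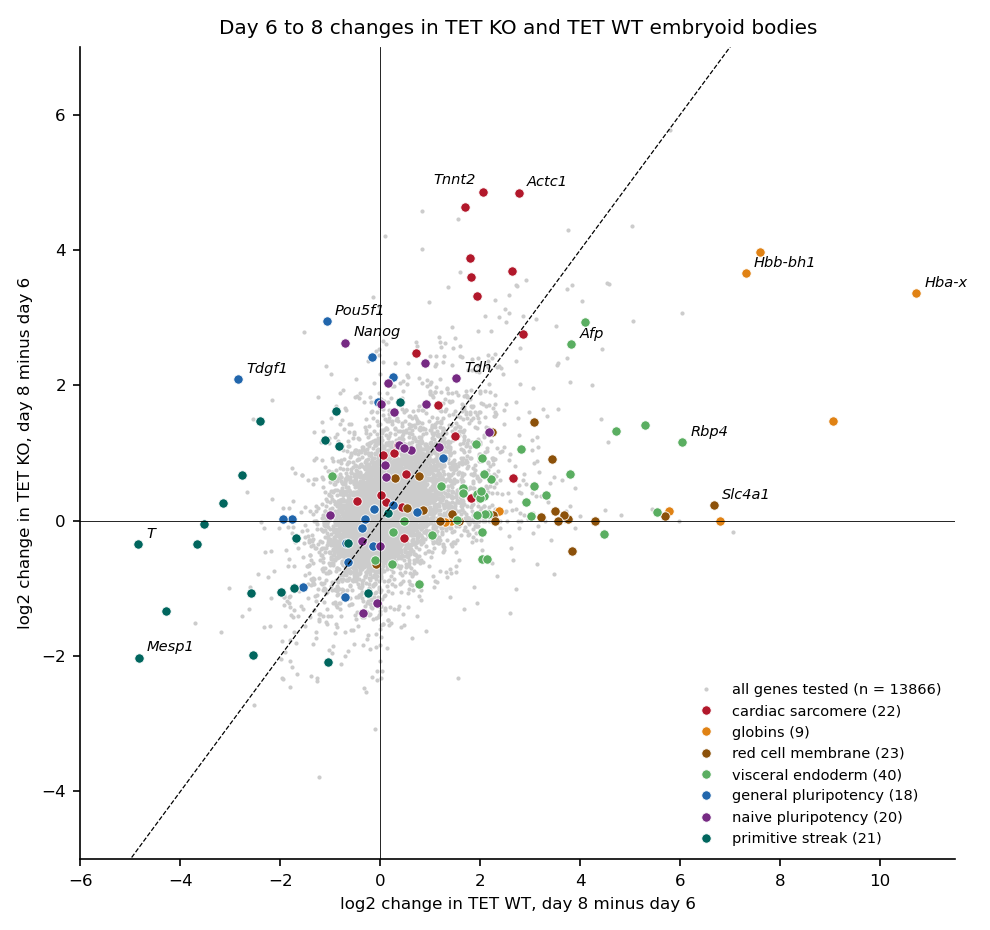
Log2 change from day 6 to day 8 of each of 13866 genes, TET KO on the vertical axis and TET WT on the horizontal axis, with 7 gene lists in colour and a dashed line of equal change. Most globin and red cell genes lie far to the right and near the zero of TET KO, several sarcomere genes lie above the dashed line, and a set of pluripotency and streak genes lies above it.

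Of 29 mesenchyme and matrix genes 14 rose and none fell in TET KO (median 0.88), beside 15 rises and 1 fall in TET WT (median 1.34) and 18 rises and 1 fall in DNMT WT. Col3a1, a fibrillar collagen (ENSMUSG00000026043, chr1:45311538-45349706, plus strand), had the largest rise among genes named by level, with 42.3, 45.0 and 35.4 RPKM on day 8 and 0.314, 0.187 and 0.262 RPKM on day 6 (log2 change 5.77, SE 0.13, adjusted p = 1.25e-18). Its rise was 5.80 in TET WT and 5.74 in DNMT WT, and the difference of -0.03 between TET KO and TET WT had an interval of -0.41 to 0.36. Postn, periostin of loose connective tissue, rose by 2.94 in TET KO and by 5.06 in TET WT (difference -2.12, not called with voom at -1.24). Hapln1, which links hyaluronan to proteoglycans and is prominent in developing heart cushions, had 38.7, 40.3 and 31.1 RPKM on day 8 and 1.19, 1.02 and 0.930 RPKM on day 6 of TET KO, a rise of 4.58, and its change of 0.84 in TET WT was not called. Its partner proteoglycan Vcan rose by 2.59 in TET KO, and its change of 0.73 in TET WT was not called. Acta2, smooth muscle actin, rose to 37.3 ± 3.64 RPKM in TET KO and to 166 ± 8.88 RPKM in TET WT on day 8, against 3.99 ± 0.27 and 2.03 ± 0.08 RPKM on day 6 (SD, n = 3 each; difference -2.97).

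Fewer visceral endoderm genes rose in TET KO than in TET WT or DNMT WT. The share that rose in TET KO still lay above the 4.77% over all genes tested, whose median change was 0.05. Of 40 tested genes 7 rose and none fell (median 0.35), against 32 rises and 1 fall in TET WT (median 2.03) and 24 rises and 1 fall in DNMT WT (median 1.17). The 7 rises of TET KO were 4 with quantile normalization and with a pseudocount of 1 RPKM, and 13 with voom and with 0.1 RPKM. Rbp4, the retinol carrier, had 4.08, 4.87 and 5.95 RPKM on day 8 and 1.78, 1.98 and 1.98 RPKM on day 6 of TET KO (log2 change 1.16, and 0.99 without a call under quantile normalization). In TET WT it had 354 ± 43.0 RPKM on day 8 and 4.90 ± 0.81 RPKM on day 6 (SD, n = 3 each). Ttr, the thyroxine carrier transthyretin, rose by 1.33 in TET KO and by 4.72 in TET WT, so that the difference was -3.39 (SE 0.16, adjusted p = 4.09e-13). Afp, alpha-fetoprotein, had 3.44, 2.58 and 4.63 RPKM on day 8 of TET KO against 0.0254, 0.0245 and 0.484 RPKM on day 6 (log2 change 2.61). Its difference from TET WT was -1.21 on the main scale, 0.087 with a pseudocount of 0.1 RPKM and 1.69 with voom, so no direction is given for it. In the difference of the changes 2 members of the list were called higher in TET KO and 31 lower, beside 3.64% and 4.68% over all genes. Pyy, a gut hormone gene, was at 0.399, 0.650 and 1.22 RPKM on day 8 and 1.22, 0.145 and 1.77 RPKM on day 6 of TET KO, with overlap, where TET WT had 83.3 RPKM on average on day 8 and none of its day 6 libraries had a read.

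Many naive and some general pluripotency genes rose between day 6 and day 8 of TET KO. Of 20 naive pluripotency genes 13 rose and 2 fell (Klf4 and Tbx3), a median of 1.10, against 3 rises and 1 fall in TET WT (median 0.21) and 4 rises and 2 falls in DNMT WT. The 13 rises of TET KO were 10 with median centring, and 9 with quantile normalization and with a pseudocount of 1 RPKM. Of 18 general pluripotency genes 5 rose (Pou5f1, Sox2, Utf1, L1td1 and Tdgf1) and 1 fell (Lin28a), with 12 not called and a median of 0.08, against 1 rise and 5 falls in TET WT and no rises and 7 falls in DNMT WT. Pou5f1 (Oct4, ENSMUSG00000024406, chr17:35506018-35510772, plus strand), the central pluripotency factor, had 64.0, 66.7 and 79.4 RPKM on day 8 of TET KO against 9.30, 7.13 and 9.50 RPKM on day 6. In TET WT it had 11.7, 15 and 12.6 RPKM on day 8 and 31.6, 31.0 and 22.3 RPKM on day 6. The days did not overlap in either line, and the order was opposite: the log2 change was 2.95 in TET KO, -1.07 in TET WT and -1.76 in DNMT WT, a difference of 4.02 between TET KO and TET WT (SE 0.16, adjusted p = 3.4e-14).

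Nanog, its co-factor, had 26.6, 24.8 and 30.5 RPKM on day 8 and 4.36, 3.39 and 4.21 RPKM on day 6 of TET KO, a log2 change of 2.63 against -0.71 in TET WT (not called) and -1.85 in DNMT WT. Tdgf1 (Cripto), a co-receptor of Nodal, had 60.7, 60.3 and 64.2 RPKM on day 8 and 16.6, 13.6 and 12.4 RPKM on day 6 of TET KO. It fell by 2.84 in TET WT, so the difference of 4.94 was the largest positive one among genes named by level. Pim2, a survival kinase, rose by 2.79 in TET KO and fell by 1.52 in TET WT (difference 4.32). Further rises in TET KO were Utf1 (2.42), Dppa3 (2.33), L1td1 (2.13), Tdh (2.11), Dppa5a (2.03), Fgf4 (1.76) and Sox2 (1.75). Fgf5, a ligand of the primed epiblast, rose by 1.5 in TET KO and fell by 2.54 in TET WT. Dnmt3b, the de novo methyltransferase of the epiblast, was not called in TET KO, at 69.8 ± 10.2 RPKM on day 8 and 68.4 ± 0.94 RPKM on day 6 (log2 change 0.02, interval -0.17 to 0.21), and had 18.4 ± 3.19 and 71.6 ± 4.43 RPKM in TET WT on day 8 and day 6. Several of these genes, Pou5f1, Nanog and the Dppa family among them, have processed copies elsewhere in the genome, and how reads were split is not given in the sources used here.

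Along the whole course the day 8 level of Pou5f1 in TET KO stood above day 6 and well below the early days. Its means were 455 RPKM in stem cells, 987 and 608 RPKM on days 1 and 2 of epiblast-like cells, and 413, 233, 8.64 and 70.0 RPKM in embryoid bodies of days 2, 4, 6 and 8. Nanog in TET KO had 502 RPKM in stem cells and 86.2, 3.98 and 27.3 RPKM in embryoid bodies of days 4, 6 and 8. Fgf5 in TET KO had 62.9, 8.45 and 24.9 RPKM on the same 3 days. For each of these 3 genes day 6 was the lowest point of the embryoid body course in TET KO, while in TET WT the day 8 mean lay below that of day 6. Summed over the naive list, TET KO had 241 to 316 RPKM on day 8 and 96.9 to 106 RPKM on day 6, and whether undifferentiated cells made up part of the day 8 bodies was not tested.

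**Figure D3:**
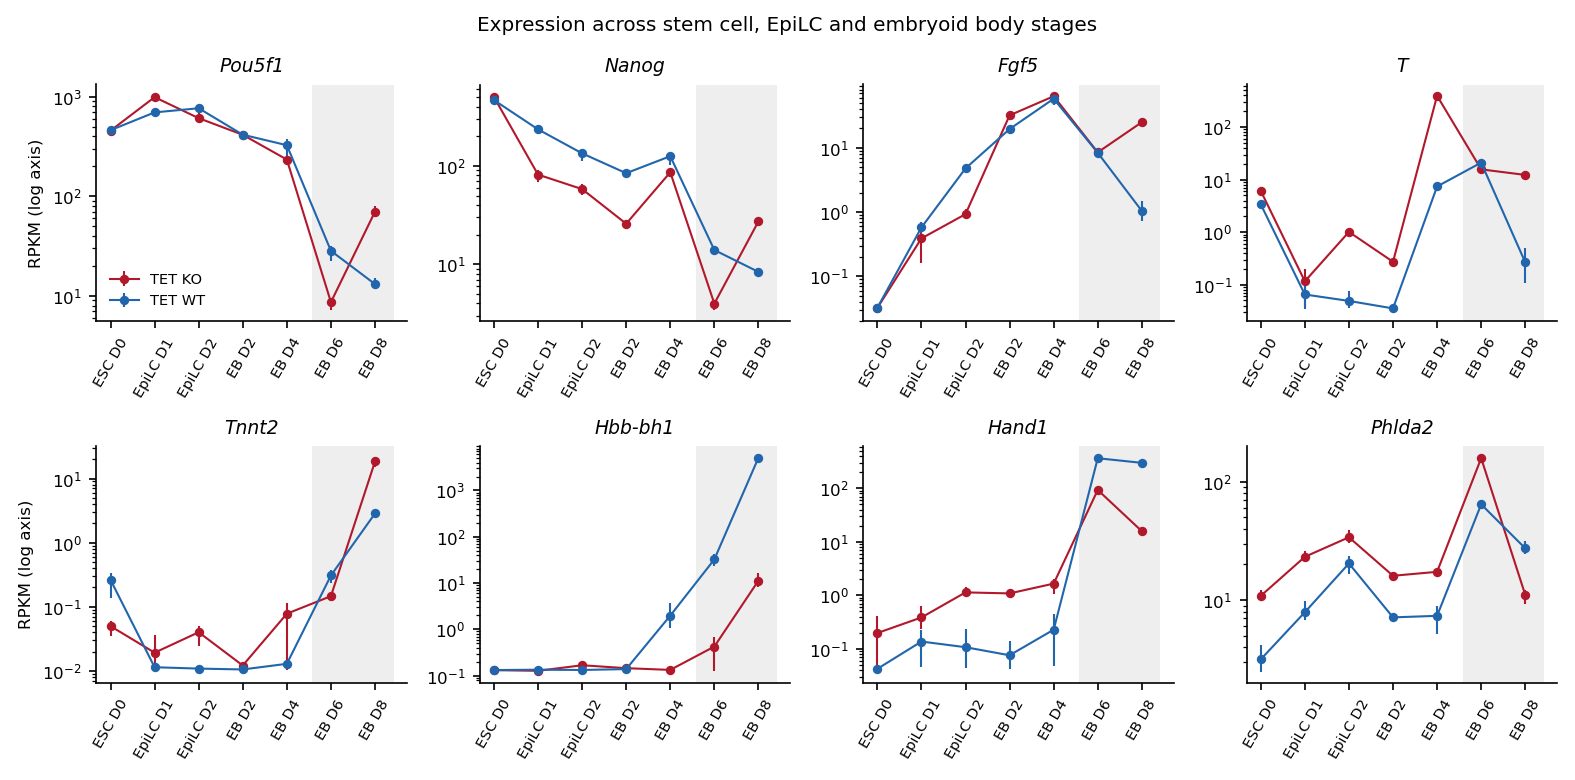
Mean level of 8 genes in RPKM (log axis) over stem cells, epiblast-like cells of days 1 and 2 and embryoid bodies of days 2, 4, 6 and 8, for TET KO and TET WT, with bars from the lowest to the highest library and the day 6 to day 8 step shaded. Each point has 3 libraries, except TET KO embryoid bodies of day 2 with 2. In TET KO, Pou5f1, Nanog and Fgf5 dip on day 6 and stand higher on day 8, and Hand1 and Phlda2 peak on day 6.

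Windows of Pou5f1 and Nanog before the RefSeq start are shown because CpG dinucleotides are the substrate of DNA methylation, and capitals mark each CG. The Pou5f1 window is chr17:35505782-35506031 on the plus strand, and the Nanog window chr6:122707239-122707488 on the plus strand (GRCm38.p6).
Pou5f1: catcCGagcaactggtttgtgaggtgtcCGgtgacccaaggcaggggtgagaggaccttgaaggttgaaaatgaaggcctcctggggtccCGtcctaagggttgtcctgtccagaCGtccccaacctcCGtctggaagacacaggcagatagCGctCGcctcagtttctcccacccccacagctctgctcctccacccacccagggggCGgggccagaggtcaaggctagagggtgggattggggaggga
Nanog: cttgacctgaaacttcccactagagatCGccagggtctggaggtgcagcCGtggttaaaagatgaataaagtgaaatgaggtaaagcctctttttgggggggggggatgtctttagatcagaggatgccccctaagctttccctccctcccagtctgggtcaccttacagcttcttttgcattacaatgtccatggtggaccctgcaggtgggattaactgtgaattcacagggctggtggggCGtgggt
The Pou5f1 window holds 8 CpG and the Nanog window 3, both under the median of 16 over all tested genes with a window. The median was 12 in the 431 genes that rose in TET KO and 8 in the 140 that fell. Methylation of these windows was not measured in the values used here.

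Primitive streak genes went both ways in TET KO. Of 21 genes 5 rose (Wnt8a, Cer1, Nodal, Lefty2 and Fgf4) and 7 fell (Mixl1, Mesp1, Mesp2, Evx1, Tbx6, Msgn1 and Sp5), where none rose and 15 fell in TET WT and none rose and 17 fell in DNMT WT. T (Brachyury), the streak factor, had 14.5, 11.3 and 11.1 RPKM on day 8 of TET KO against 16.2, 16.2 and 14.6 RPKM on day 6. The highest day 8 library lay just under the lowest of day 6, and the change of -0.35 was not called (adjusted p = 0.0513). In TET WT, T had 0.105, 0.198 and 0.492 RPKM on day 8 and 21.4, 21.5 and 20.2 RPKM on day 6, a difference of the changes of 4.5 (SE 0.20, adjusted p = 2.14e-13). Mesp1, which marks the first cardiac and blood mesoderm, fell by 2.02 in TET KO and by 4.84 in TET WT. Evx1, a posterior streak factor, fell by 1.98 in TET KO and by 2.55 in TET WT. Wnt8a, a streak ligand, had 2.02, 1.83 and 2.16 RPKM on day 8 of TET KO against 0.245, 0.472 and 0.245 RPKM on day 6, while in TET WT it had no more than 0.565 RPKM in any library of either day.

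Of 18 tested neural genes 8 rose, 1 fell and 9 were not called in TET KO (median 0.75), against no rises and 6 falls in TET WT (median -0.69) and no rises and 5 falls in DNMT WT. With quantile normalization and with a pseudocount of 1 RPKM 5 neural genes rose in TET KO. Sox2, among the 8 rises, is also counted in the general pluripotency list. Otx2, a factor of epiblast and forebrain, had 15.9, 15.6 and 20.1 RPKM on day 8 of TET KO against 6.72, 4.62 and 6.56 RPKM on day 6 (log2 change 1.46). Tubb3, neuronal tubulin, rose by 1.82 and Ina, a neurofilament protein, by 1.52, while Crabp1, which binds retinoic acid, fell by 1.83. Nr2f1 (COUP-TFI), a nuclear receptor named by its size of change, had 9.76, 9.58 and 7.59 RPKM on day 8 of TET KO against 0.118, 0.0162 and 0.118 RPKM on day 6 (log2 change 4.02, SE 0.14). In TET WT it averaged 0.604 and 0.118 RPKM on day 8 and day 6, below every TET KO day 8 library. Shisa3, of a family that in Xenopus holds Wnt and FGF receptors in the endoplasmic reticulum, had 10.8, 12.4 and 7.48 RPKM on day 8 of TET KO and at most 0.0902 RPKM in its day 6 libraries, and at most 0.145 RPKM in any TET WT library of either day.

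Several of the deepest falls were of genes whose embryoid body level peaked on day 6. Phlda2, an imprinted growth suppressor of the placenta, had 9.28, 12.3 and 11.6 RPKM on day 8 of TET KO against 159, 162 and 151 RPKM on day 6 (log2 change -3.78, SE 0.09, adjusted p = 1.88e-18). On day 4 it averaged 17.3 RPKM. Cdx2, a caudal and trophectoderm factor (ENSMUSG00000029646, chr5:147300805-147307270, minus strand), had 5.61, 5.98 and 6.48 RPKM on day 8 against 53.6, 57.4 and 52.3 RPKM on day 6 (log2 change -3.07, SE 0.11), and 11.3 RPKM on average on day 4. Hand1, a factor of extraembryonic and lateral mesoderm and of the heart, had 14.3, 15.4 and 17.7 RPKM on day 8 against 92.3, 92.6 and 94.2 RPKM on day 6 (log2 change -2.53, SE 0.07). All day 8 libraries of these 3 genes lay far below all day 6 libraries. In TET WT, Hand1 stood at 299 ± 19.7 RPKM on day 8 and 365 ± 23.4 RPKM on day 6 (SD, n = 3 each) and Cdx2 at 17.7 ± 1.14 and 19.2 ± 0.74 RPKM, neither called, so the differences of the changes were -2.24 and -2.96.

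Some BMP pathway genes fell too. Of 21 BMP and TGF-beta genes none rose and 5 fell in TET KO (median -0.39), against 3 rises and 2 falls in TET WT and 2 rises and 2 falls in DNMT WT. Without TET KO day 6 replicate 1 a single gene of the list rose, and 2 did with voom. Bmp4, a ligand of ventral mesoderm, had 28.3, 27.1 and 30.1 RPKM on day 8 of TET KO against 73.8, 78.5 and 79.8 RPKM on day 6 (log2 change -1.43, SE 0.08), and 43.8 and 55.4 RPKM on average in TET WT on day 8 and day 6. Bmp2, a related ligand, fell by 1.47 in TET KO, and its change of 0.15 in TET WT was not called. The BMP-responsive homeobox genes Msx2 and Msx1 fell by 2.45 and 1.86 in TET KO. Nog, the secreted BMP antagonist noggin, fell by 2.22 in TET KO, with 1.14, 1.11 and 1.36 RPKM on day 8 against 6.98, 8.32 and 7.13 RPKM on day 6. Its change in TET WT was 0.03 and was not called.

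Among 15 Wnt target genes 2 rose and 5 fell in TET KO, where 2 rose and 9 fell in TET WT and 2 rose and 8 fell in DNMT WT. Axin2, a negative feedback target, fell by 1.40 in TET KO and 1.65 in TET WT, a difference of 0.25 that was not called (interval -0.00 to 0.49). Lef1, a nuclear effector, fell by 1.31 in TET KO and by 1.32 in TET WT. The secreted Wnt binding proteins Sfrp5 and Sfrp1 rose by 3.12 and 2.64 in TET KO. Of the other genes with the largest falls, Cfc1, a co-receptor of Nodal, fell by 2.32 in TET KO and by 1.97 in TET WT, and Amhr2, the receptor of anti-Müllerian hormone, by 2.05 in TET KO and by 1.98 in TET WT. Ms4a4d fell by 2.32 and Smim10l2a by 2.26 in TET KO, and in TET WT they fell by 1.26 and 1.67. Gbp2, an interferon-induced GTPase, fell by 2.11 and Serpinb6b by 2.01 in TET KO, while their changes of -0.79 and -0.70 in TET WT were not called.

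**Figure D4:**
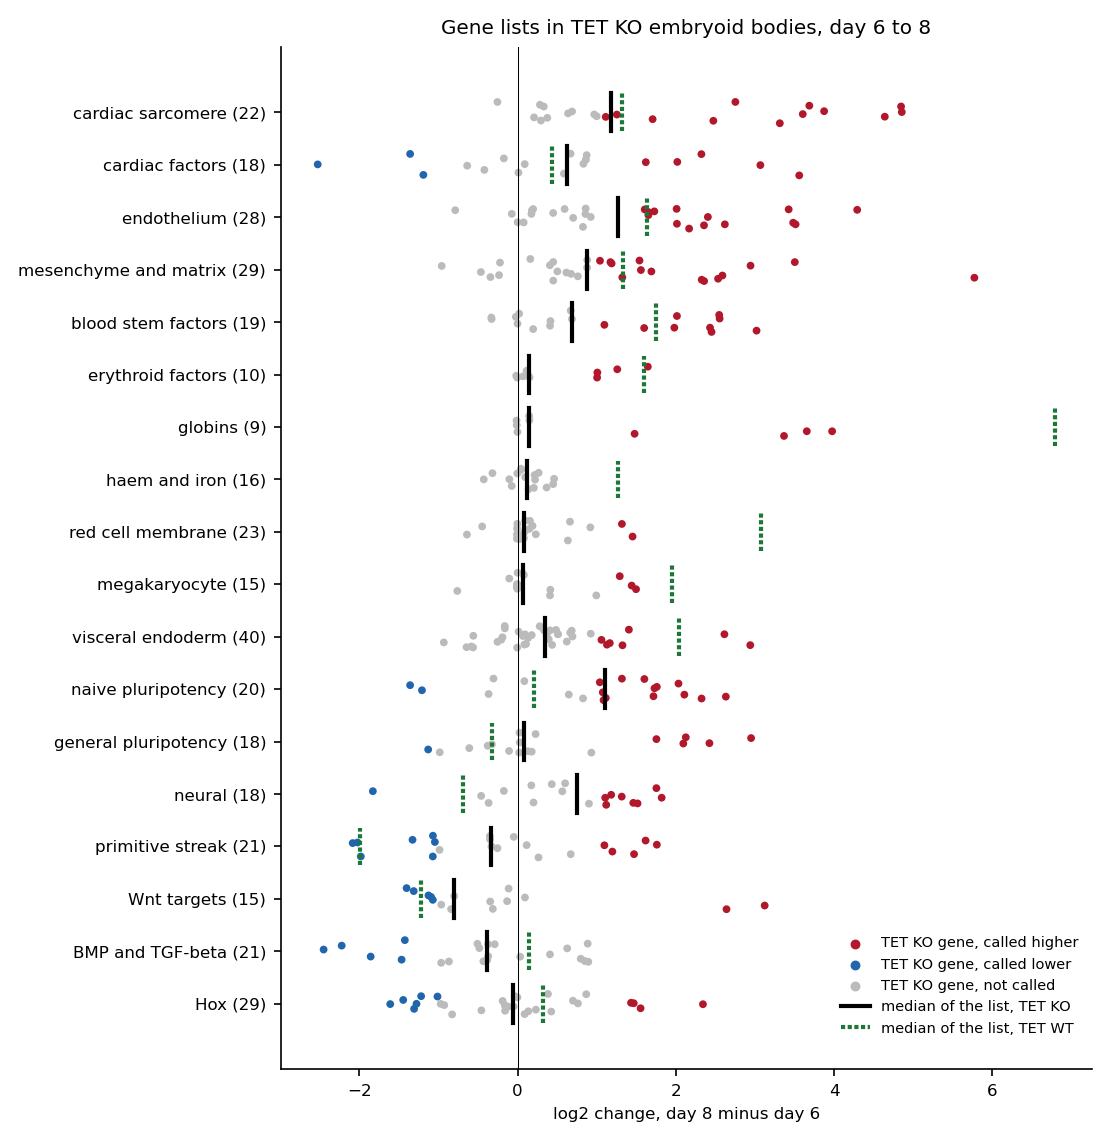
Log2 change from day 6 to day 8 in TET KO of each tested member of 18 gene lists, as dots that are red for genes called higher, blue for genes called lower and grey for the rest. The black bar is the TET KO median of the list and the green dotted bar that of TET WT. Sarcomere, endothelial and naive pluripotency lists lie right of zero in TET KO, and the TET WT medians of the globin, red cell membrane and visceral endoderm lists lie far right of those of TET KO.

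Hox, trophoblast and imprinted genes went both ways in TET KO. Over all genes tested 4.77% rose and 1.58% fell. Of 29 Hox genes 4 rose (Hoxa3, Hoxa4, Hoxa5 and Hoxb4) and 6 fell (Hoxb1, Hoxb6, Hoxb9, Hoxc6, Hoxc8 and Hoxd1) in TET KO, against 10 rises and 2 falls in TET WT and no rises and 4 falls in DNMT WT. In the differences of the changes 4 Hox genes were called higher and 11 lower against TET WT, beside 3.64% and 4.68% over all genes. Against DNMT WT 4 were called higher and 6 lower, beside 2.96% and 4.05%. Hoxa4 had 4.95, 5.55 and 2.96 RPKM on day 8 of TET KO and 0.699, 0.0575 and 0.807 RPKM on day 6 (log2 change 2.34), and at most 0.255 RPKM in any TET WT library. Of 26 germline genes known to be silenced by methylation 4 fell in TET KO and 1 rose, a rise count near the share over all genes. The falls were 9 with voom and with a pseudocount of 0.1 RPKM and 1 with 1 RPKM, and none rose without TET KO day 6 replicate 2 or 3 or TET KO day 8 replicate 3. Ddx4, the germ cell helicase, had 2.92, 2.37 and 3.70 RPKM on day 8 against 8.90, 7.32 and 7.85 RPKM on day 6 (log2 change -1.30), and lay under 0.5 RPKM in each TET WT library. Of 14 trophoblast genes 4 rose and 2 fell, and Tpbpa, a spongiotrophoblast marker, had 5.86, 6.27 and 4.26 RPKM on day 8 of TET KO, at most 0.129 RPKM on day 6 and at most 0.210 RPKM in TET WT. The X-linked homeobox genes Rhox5 and Rhox9 rose by 2.05 and 1.54 in TET KO, and reads of this family may be shared among its similar copies.

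Of 30 imprinted genes 9 rose and 2 fell in TET KO, beside 11 and 2 in TET WT and 8 and 1 in DNMT WT. Dlk1, a paternally expressed growth regulator, had 135, 131 and 115 RPKM on day 8 against 15.7, 17.0 and 17.5 RPKM on day 6 (log2 change 2.88), and Plagl1, a factor of the imprinted gene network, had 69.0, 77.8 and 54.4 RPKM against 2.78, 2.60 and 2.93 RPKM (log2 change 4.35). Both rose in TET WT too, by 3.51 and 5.04. Mest rose by 1.96 and Cdkn1c by 1.57 in TET KO. Grb10, an inhibitor of insulin signalling, went the opposite way between the lines, with a rise of 2.28 in TET KO and a fall of 1.08 in TET WT (difference 3.37, SE 0.14, adjusted p = 8.3e-14).

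Retinoic acid genes numbered 5 rises and 1 fall among 14, with Rdh10, which makes retinal, at a log2 change of 1.73 and the receptor Rarb at 1.42 in TET KO. Foxc2, a paraxial mesoderm and vessel factor, rose by 2.03. Among 10 CDK inhibitors and D cyclins 4 rose, with the inhibitor Cdkn2a at 1.62 and the cyclin Ccnd2 at 2.01, while none of 34 proliferation genes was called (median -0.13) and none of 30 hypoxia and glycolysis genes (median -0.36). Smaller changes were present in both lists: with limma 22 of the 34 and 25 of the 30 had an adjusted p under 0.05, and an unadjusted p under 0.05 was reached by 4 proliferation genes upward and 19 downward and by 4 hypoxia and glycolysis genes upward and 21 downward. With voom no proliferation gene and 1 hypoxia and glycolysis gene was called. Of 76 cytosolic ribosomal protein genes 1 rose and 4 fell (median -0.50), and of 12 mitochondrially encoded genes 5 fell (median -0.61). The mitochondrial count was 3 without TET KO day 8 replicate 2, without TET KO day 8 replicate 3 and with a pseudocount of 1 RPKM, and 1 of 7 genes tested at 5 RPKM or more. With quantile normalization 1 ribosomal protein gene fell, and 2 rose without TET KO day 8 replicate 1 or TET KO day 6 replicate 1. Mitochondrial reads were 0.916% to 1.10% of the TET KO day 8 libraries and 1.38% to 1.53% of those of day 6, and their part in other results was not tested.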

How the data were processed

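RNA of mouse embryoid bodies was read from a table of log2 RPKM values that the authors deposited, with 1 column per library. Per the labels' protocols, libraries were stranded and made after oligo dT pulldown. Per the submitters' processing notes, Trim Galore 0.6.1, cutadapt 1.18, HISAT2 2.1.0 and GRCm38 were used. For the counting tool and annotation, nothing is given in the sources used here.

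Among entries that share an identifier the one highest on average was used, and 39 of 35269 were dropped. Whole reads were recovered from the RPKM steps with merged exon lengths, and 96.9% of values of 1 to 20 reads lay within 0.1 of a whole number. Depth over the series was 7.76 to 13.9 M reads. Values entered limma 3.58.1 (R 4.3.3, eBayes with trend and robust settings) as log2(RPKM + 0.5), with 24 libraries, the 4 genotypes on days 6 and 8. Recovered reads entered voom as an alternative. Other alternatives were pseudocounts of 0.1 and 1 RPKM, no filter, a filter at 5 RPKM, median centring, quantile normalization, a fit on the compared groups alone, a replicate block, and leaving out libraries or chromosomes. Intervals of ratios are 95% and cover counting error only. Replicates of a TET KO day correlated at 0.991 to 0.994 across genes and no library stood apart.

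The members and the 41 gene lists were chosen with earlier results of these data known. Some genes belong to more than 1 list, among them Sox2, Fgf4, Hand1, Cdx2 and Crabp1, so the counts of different lists are not independent. Named genes were the 12 largest rises and 12 largest falls in TET KO with no overlap between days and an average of 5 RPKM or more on the higher day, up to 5 called members per list, the 6 largest differences from TET WT each way, the Tet genes and some lineage markers. Genes given as uncalled examples and some list members were chosen after their values were seen. Windows of 250 bases are RefSeq, GRCm38.p6, and matched 10324 genes.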

Additional observations from a re-analysis of the deposited data

Results flagged for a closer look

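Each value below is the difference between the day 6 to day 8 log2 change of TET KO and that of TET WT, tested as a contrast in the limma fit, and is given for the genes described above whose difference was called. A positive value means that the change was higher in TET KO. All values share the 3 libraries per line and day, so they are not independent of one another.

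Pluripotency and epiblast genes had a higher change in TET KO: Tdgf1 by 4.94, Pim2 by 4.32, Fgf5 by 4.04, Pou5f1 by 4.02, Nanog by 3.34, Utf1 by 2.58, Dnmt3b by 1.96, Dppa5a by 1.88, L1td1 by 1.87, Sox2 by 1.80, Dppa3 by 1.44 and Fgf4 by 1.36. For Pou5f1, Tdgf1, Pim2 and Fgf5 the gene was called higher in TET KO and lower in TET WT. The streak genes T, Mesp1 and Wnt8a differed by 4.5, 2.81 and 2.50. Among genes tied to neural and axial patterning the differences were 3.19 for Nr2f1, 3.06 for Tubb3, 2.63 for Otx2, 2.50 for Ina and 2.29 for Hoxa4, the last of which was not called with voom.

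Heart muscle genes had positive differences of 2.95 (Myl7), 2.80 (Tnnt2), 2.08 (Actc1), 2.08 (Myh6) and 1.06 (Mybpc3), and Gata5 a negative one of -1.23. With voom, those of Actc1, Myh6 and Mybpc3 were not called. Matrix and vessel genes were divided. Hapln1 (3.74), Vcan (1.86), Foxc2 (1.65), Sox7 (1.32) and Lmo2 (1.11) were positive, while Acta2 (-2.97), Postn (-2.12), Igfbp5 (-1.89), Cdh5 (-1.33) and Lum (-1.08) were negative.

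Red cell, platelet, visceral endoderm and gut hormone genes had negative values. They were -7.57 for Hba-a1, -7.35 for Hba-x, -6.80 for Hba-a2, -6.44 for Slc4a1, -5.99 for Alas2, -3.93 for Klf1, -3.65 for Hbb-bh1, -3.63 for Hbb-y and -2.00 for Gata1. The platelet integrin Itgb3 stood at -2.91. Rbp4 had -4.88, Ttr -3.39 and Afp -1.21, the last of which changed sign with the pseudocount, and the gut hormone gene Pyy had -7.22.

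Genes that fell in TET KO gave -2.96 for Cdx2, -2.55 for Phlda2, -2.26 for Nog, -2.24 for Hand1, -1.65 for Ddx4, -1.61 for Bmp2, -1.48 for Crabp1, -1.32 for Gbp2, -1.31 for Serpinb6b, -1.09 for Bmp4 and -1.06 for Ms4a4d. Further genes with a higher change in TET KO were Shisa3 (4.12), Tpbpa (3.45), Grb10 (3.37), Ccnd2 (1.48), Rarb (1.47), Sfrp1 (1.45) and Rhox5 (1.04). The causes of these differences were not tested.

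Some of these calls ended under an alternative. With a pseudocount of 1 RPKM the difference was -0.87 for Gata5, -0.98 for Lum, -0.78 for Ms4a4d and 0.88 for Sox7, and with 0.1 RPKM it was 0.90 for Mybpc3. With voom the differences that were no longer called were -1.11 for Gbp2, -2.17 for Hbb-bh1, -1.88 for Hbb-y, -1.59 for Lum, -1.24 for Postn, 2.96 for Hoxa4, 2.00 for Actc1, 1.78 for Myh6 and 0.71 for Mybpc3. Leaving out 1 library took Afp to -0.90 (TET KO day 6 replicate 3), Lmo2 to 0.99 (TET KO day 8 replicate 1) and Lum to -0.93 (TET WT day 8 replicate 1) or -0.99 (TET KO day 6 replicate 1). Mybpc3 had 0.97 to 0.98 without TET KO day 6 replicate 1, TET KO day 8 replicate 2 or TET WT day 8 replicate 3. Rhox5 had 0.98 to 0.99 without TET KO day 6 replicate 1, TET KO day 8 replicate 3, TET WT day 6 replicate 3 or TET WT day 8 replicate 2. Ms4a4d had -0.99 to -0.89 without TET KO day 6 replicate 1 or 2, TET KO day 8 replicate 1, TET WT day 6 replicate 2 or TET WT day 8 replicate 3.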

How the results depend on the processing

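The alternatives were run on the counts of called genes, the lists and the 103 genes described. For TET KO the main counts of 662 rises and 219 falls became 1071 rises with a pseudocount of 0.1 RPKM, 441 with 1 RPKM and 1221 with voom on recovered reads (330 falls), and 369 rises and 124 falls at 5 RPKM or more, a filter that tests fewer genes. In TET WT the rises were 514 at 5 RPKM, and the falls 455 (0.1 RPKM), 167 (5 RPKM) and 488 (voom). In DNMT WT the rises were 463 (5 RPKM) and 1386 (voom), and the falls 311 (0.1 RPKM), 112 (1 RPKM), 299 (quantile normalization) and 364 (voom). The difference TET KO minus TET WT had 330 genes higher (1 RPKM), 288 higher and 323 lower (5 RPKM). TET KO minus DNMT WT had 259 higher (1 RPKM), 234 higher and 245 lower (5 RPKM) and 619 higher (voom). Leaving out 1 library at a time gave 651 to 700 rises and 208 to 225 falls in TET KO. Leaving out genes of chromosomes 6, 8, 11 and 14 gave 495 rises and 178 falls among 10789 genes tested. The median difference of the changes, TET KO minus TET WT, was -0.039 on chromosome 6, 0.043 on 8, -0.055 on 11 and 0.197 on 14. Over all genes tested it was 0.054. Whether the lines differ in level on these chromosomes is not shown here. With a replicate block TET KO had 664 rises and 219 falls and no gene result changed its call, but the replicate numbers did not pair the libraries (correlations of the deviations -0.0151, 0.00815 and 0.0287 in TET KO).

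Of 3078 gene values under an alternative, 3028 kept direction and call. Values that turned sign were of genes not called in TET KO, apart from Afp (difference 0.087 with 0.1 RPKM and 1.69 with voom): Dnmt3b (-0.078 with median centring, -0.093 to 0.11 without 1 library), Gata1 (-0.15 with quantile normalization), Klf1 (-0.029, -0.042 and -0.68 with median centring, quantile normalization and voom, -0.019 to 0.11 without 1 library), Hba-a2 (0.48 with voom, -0.015 to 0.0059 without 1 library) and Pyy (-0.70 to 0.20 without 1 library). For the lists, rises ranged from 7 to 16 (sarcomere), 8 to 19 (endothelial), 8 to 14 (naive pluripotency), 4 to 13 (visceral endoderm) and 5 to 12 (neural) in TET KO. The low ends of the sarcomere, endothelial and naive lists came from leaving out chromosomes, which left 15, 20 and 14 members to test. With all members tested their lowest counts were 10 of 22, 14 of 28 and 9 of 20. Other causes of these shifts were not tested. Depth limits the genes with few reads, such as Klf1 and Alas2 in TET KO, and no alternative can separate the knockout from the line.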

Other observations

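Further gene groups held small numbers of called genes between day 6 and day 8 of TET KO. Over all genes tested 4.77% rose and 1.58% fell, and counts near these shares are not results about a list. Of 15 tested megakaryocyte genes 3 rose, among them the platelet integrin Itgb3 with 3.5, 4.03 and 3.09 RPKM on day 8 against 0.857, 1.18 and 0.770 RPKM on day 6, where 13 of the 15 rose in TET WT and 12 in DNMT WT. Megakaryocyte genes low in TET KO could pass the filter through libraries of other lines alone, so the TET WT and DNMT WT counts rest in part on it. Of 18 myeloid genes 2 rose and 1 fell in TET KO, with Lcp1, an actin bundler of white blood cells, at a log2 change of 1.64, against 6 rises in TET WT and 15 in DNMT WT. In a list of 8 paraxial mesoderm and somite genes 4 rose and 1 fell, against 1 rise and 4 falls in TET WT and 1 rise and 2 falls in DNMT WT. Of 13 smooth muscle genes 2 rose in TET KO and 5 rose and 1 fell in TET WT, with 6 rises in DNMT WT.

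Of 20 parietal endoderm and basement membrane genes 5 rose, and of 16 gut and definitive endoderm genes 4 rose and 1 fell in TET KO. Of 15 surface epithelium genes 2 rose, of 15 Notch genes 1 rose, of 20 p53 targets 2 rose, of 15 stress genes 2 rose and of 16 immediate early genes 2 rose, with none falling in these 5 lists. Of 16 interferon genes 2 fell and none rose in TET KO, where 1 rose and 1 fell in TET WT and 7 rose and 1 fell in DNMT WT. Of 19 genes of the DNA methylation machinery 1 rose and 1 fell. The Notch and methylation machinery rises were near the 4.77% over all genes tested. None of 20 cholesterol synthesis genes (median 0.34) and none of 14 replication histone genes (median 0.25) was called in TET KO with limma or with voom. Only these 14 of 67 listed histone genes passed the filter, in libraries made after oligo dT pulldown, so most of that list was not measured here. Smaller changes were present in the cholesterol list, where 17 of 20 genes had an adjusted p under 0.05 and 18 an unadjusted one, all 18 upward, and 2 histone genes had an adjusted p under 0.05, as they did unadjusted.

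Several of these counts rest on single libraries. Without TET KO day 6 replicate 2, TET KO day 8 replicate 2 or TET KO day 8 replicate 3, 1 interferon gene fell, and 1 rose without TET KO day 6 replicate 1 or TET KO day 8 replicate 3. No Notch gene rose without replicate 2 of either day and 2 rose without replicate 3 of either day, and 1 fell without replicate 1 of either day. A single myeloid gene rose without TET KO day 6 replicate 2, and none fell without TET KO day 8 replicate 1 or 2. In the somite list 2 genes fell without replicate 1 of either day, and none without replicate 2 of either day or TET KO day 8 replicate 3. In the gut list 2 fell without TET KO day 6 replicate 3 or TET KO day 8 replicate 2 or 3. Without TET KO day 8 replicate 3 no methylation machinery gene and 1 replication histone gene rose. Megakaryocyte rises were 6 with voom and 1 with a pseudocount of 1 RPKM, and the surface epithelium rises were lost with 1 RPKM and with quantile normalization.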
